A study of Mus musculus with 2 samples.

Results

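The MHC class II presentation genes described here are 9 genes, H2-Aa, H2-Ab1, H2-Eb1, H2-DMa, H2-DMb1, H2-DMb2, H2-Oa, Cd74 and Ciita, chosen by symbol out of 32285 genes listed in each of 2 single-cell count matrices of mouse lung. All 9 were found and all 9 had UMIs (unique molecular identifiers, each standing for 1 captured transcript) in both libraries. One library came from mice given lipopolysaccharide (LPS), a bacterial cell wall component that inflames the lung. The other came from mice given LPS and miconazole (LPS_MCZ), an azole antifungal injected into the peritoneum at 0.2 mg/kg per the sample label and 1 mg/kg per the protocol text. The mice of both groups were ICR males, 6 to 8 weeks old, with no engineered allele named. Their left lower lobes were digested enzymatically, and each library is 1 pool of all mice in the group. Mice without LPS were not analysed here, and the sources used here give neither the number of mice nor the LPS dose or timing. ICR is an outbred stock, and the H2 genes are among the most variable between mice, so treatment and the set of mice pooled cannot be told apart.

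Class II molecules carry peptides from endocytosed proteins to the cell surface, where CD4+ T cells read them. An alpha and a beta chain form each molecule (H2-Aa with H2-Ab1 for the I-A molecule, and H2-Eb1 as the beta chain of I-E). Cd74, the invariant chain, holds the groove closed until the endosome, where H2-DM (H2-DMa with H2-DMb1 or H2-DMb2) exchanges the remaining Cd74 fragment for peptide. H2-O, whose alpha chain is H2-Oa, restrains H2-DM, and Ciita is the coactivator that switches the whole set on. In the lung, dendritic cells, B cells and interstitial macrophages are the classical carriers, while alveolar macrophages of mice hold little class II.

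In GRCm38 with the GENCODE vM21 annotation, 7 of the members lie within 224.3 kb on chromosome 17. In order they are H2-Oa (chr17:34092340-34095234), H2-DMa (chr17:34119541-34139101), H2-DMb2 (chr17:34143307-34151555), H2-DMb1 (chr17:34153072-34160230), H2-Ab1 (chr17:34257689-34269419), H2-Aa (chr17:34282744-34287823, the member on the minus strand) and H2-Eb1 (chr17:34305867-34316674). Ciita lies at chr16:10480059-10528418, and Cd74 lies on neither chromosome. All 9 are annotated as protein coding, and the matrices hold 1 row per gene.

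The promoters that bear the textbook class II pattern are shown because the ratios of these genes came apart between the libraries. Ciita acts through a complex bound at an X box followed by a Y box. The RefSeq promoter table (GRCm38.p6, 250 bases before to 50 after a start) held 6 of the 9 members, and 3 of these had GCAAC, the core letters used here for the X box, with ATTGG, those of the Y box, beginning 30 to 35 bases downstream on the same strand. The stretches from 110 to 39 bases before the start are given 5′ to 3′ on the gene's strand, with these letters in capitals.
H2-Aa, chr17:34287862-34287933, minus strand: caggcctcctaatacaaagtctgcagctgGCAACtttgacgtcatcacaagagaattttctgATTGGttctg
H2-Eb1, chr17:34305757-34305828, plus strand: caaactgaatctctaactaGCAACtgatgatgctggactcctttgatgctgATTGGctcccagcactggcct
H2-Oa, chr17:34092269-34092340, plus strand: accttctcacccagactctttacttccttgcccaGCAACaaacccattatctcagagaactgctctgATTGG
The 2 words began 33 bases apart in H2-Aa and H2-Oa and 32 apart in H2-Eb1. Searched on both strands of 32851 promoters, GCAAC occurred in 35.2%, ATTGG in 37.4% and the spaced pair in 0.283%. The H2-DMb1, H2-DMb2 and H2-DMa entries did not hold the spaced pair in these letters. A match of letters is a description of the reference sequence and not a measured binding site.

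The libraries held 90597705 (LPS) and 68467793 (LPS_MCZ) UMIs over 12577 and 8500 barcodes, of which 12074 and 8314 were kept, at a median of 5809.5 and 6180.0 UMIs per cell. The libraries shared 243 barcodes, all of them kept. Cells were grouped by clustering without the class II genes and named from marker lists, which gave 19 named cell types. Unnamed clusters included cluster 16, which met 8 of 8 nonclassical monocyte markers but was led by other genes, and cluster 8, which met 11 of 11 neutrophil markers with none of them among its leading genes. Levels are UMIs of a gene per 1000000 UMIs of the cell type in a library (CPM), counted at the 3′ end so that transcript length does not scale them, with 95% exact Poisson intervals. With 1 library per group there is no test between the groups, and all intervals cover counting error alone, not variation between mice. In a pooled library, fewer cells of a type and less RNA per cell both lower the type's share of UMIs, and these were separated here only as far as the cell names allow.

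**Figure D1:**
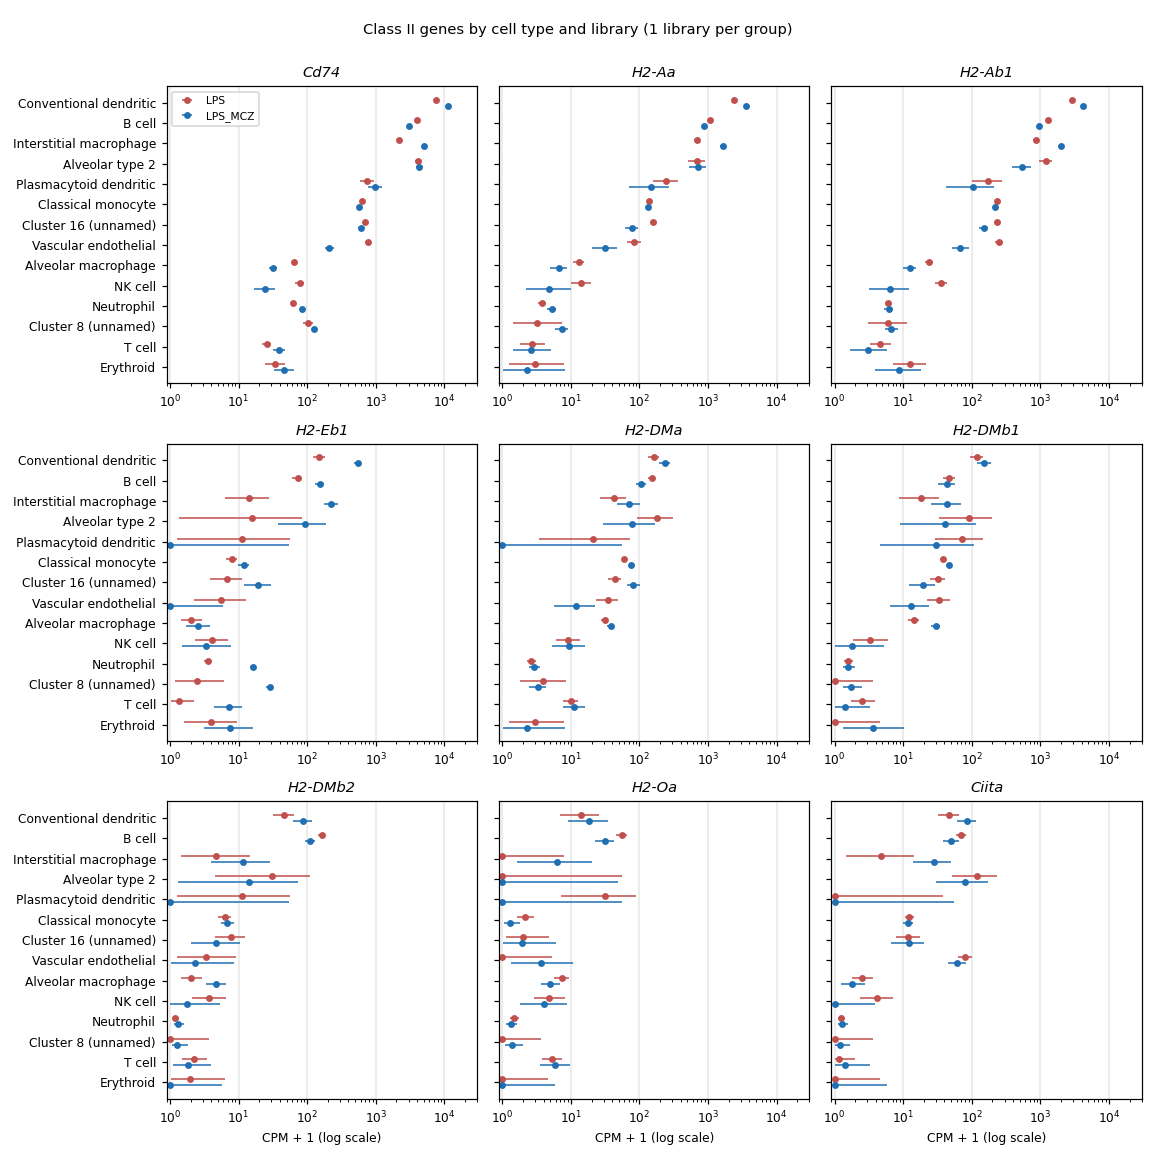
Level of each member (CPM + 1, logarithmic axis) in 14 cell types or clusters, with LPS in red and LPS_MCZ in blue; points are the values of 1 library each and bars are 95% Poisson intervals. Conventional dendritic cells lead for Cd74, H2-Aa, H2-Ab1 and H2-Eb1 with the cells as grouped here, and B cells lead for H2-DMb2.

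Conventional dendritic cells carried the highest class II level in both libraries. The 9 members summed to 13327 CPM in LPS (interval 13057 to 13601, 57 cells) and to 19896 CPM in LPS_MCZ (19512 to 20285, 37 cells). This was 1.94 times the B cell level in LPS and 3.70 times in LPS_MCZ. The order turned round under a stricter cell filter, whose dendritic class held 226 and 147 cells, with ratios of 0.511 and 0.865. B cells stood at 6868 CPM in LPS (6754 to 6983, 313 cells) and 5383 CPM in LPS_MCZ (5251 to 5517, 109 cells). Interstitial macrophages, marked by complement C1q genes, stood at 3776 CPM in LPS (3613 to 3945, 47 cells) and 9068 CPM in LPS_MCZ (8765 to 9379, 33 cells). They were below B cells in LPS and above them in LPS_MCZ.

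Alveolar type 2 cells, the surfactant-making epithelium, also held class II RNA at 6482 CPM in LPS (5888 to 7120) and 5844 CPM in LPS_MCZ (5315 to 6410). Their intervals overlapped those of B cells in both libraries. They numbered 15 and 8 cells, and 1 LPS_MCZ cell held 64.1% of their 449 class II UMIs. A middle tier followed in LPS, with plasmacytoid dendritic cells at 1307 CPM, vascular endothelium at 1246 CPM, cluster 16 at 1190 CPM and classical monocytes at 1116 CPM. The plasmacytoid interval (1092 to 1552, 7 cells) overlapped those of the other three. In LPS_MCZ the endothelium stood below this tier, at 395 CPM (352 to 443).

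All remaining named types lay below 300 CPM. Alveolar macrophages held 152 and 124 CPM, neutrophils 75.7 and 110 CPM, T cells 46.7 and 64.6 CPM, and erythroid cells, which should lack class II, 52.9 and 64.9 CPM, in LPS and LPS_MCZ in that order. The share of free RNA in a type was bounded from its counts of the neutrophil genes S100a8 and S100a9, all taken as free. At that bound, free RNA of the library's make-up would carry 56.2 and 65.4 CPM of class II into B cells and 97.6 and 110 CPM into T cells, the latter more than T cells held. Erythroid cells likewise lay below their bound, so the T cell and erythroid sums are read as background. The bound was taken for the sum and not for single members.

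The members kept different proportions in different cells. Cd74 was the most counted member in each of the main antigen-presenting types, with 7523 CPM (LPS) and 11167 CPM (LPS_MCZ) in conventional dendritic cells. Per 100 Cd74 UMIs over both libraries there were 31.5 H2-Aa UMIs in dendritic cells, 31.9 in interstitial macrophages and 27.3 in B cells, but 22.5 in classical monocytes and 4.8 in neutrophils. H2-Ab1 was also lowest per Cd74 in neutrophils, with 39.8 in interstitial macrophages, 37.6 in both dendritic cells and classical monocytes, 31.9 in B cells and 7.3 in neutrophils. The neutrophil Cd74 signal thus came with far fewer I-A chains per Cd74 than in any of these types.

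The peptide editors divided by cell type. H2-DMb1 and H2-DMb2 are neighbouring genes for alternative H2-DM beta chains. B cells had 31.1 H2-DMb1 UMIs per 100 H2-DMb2 UMIs, and H2-DMb2 there reached 162 CPM (LPS) and 109 CPM (LPS_MCZ). Dendritic cells had 211 H2-DMb1 per 100 H2-DMb2, interstitial macrophages 417, classical monocytes 736 and alveolar macrophages 909. The interstitial value rests on 25 H2-DMb1 and 6 H2-DMb2 UMIs and the alveolar one on 291 and 32. The order among these types is therefore not read. B cells were thus the one of these 5 types in which H2-DMb2 exceeded H2-DMb1. Of the stretches of 91 bases in their reference transcripts, 206 of 1588 in H2-DMb1 and 211 of 1741 in H2-DMb2 also occur in another gene, so reads there cannot be assigned to 1 of them. The other 7 members shared none.

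Alveolar macrophages had little of the chains and held more H2-DMa than H2-Ab1 RNA. H2-DMa stood at 30.2 CPM (LPS) and 37.0 CPM (LPS_MCZ), above H2-Ab1 at 23.0 and 11.4 CPM. This H2-DMa level was below that of interstitial macrophages (41.5 and 69.7 CPM), classical monocytes (58.0 and 75.1), B cells (150 and 104) and dendritic cells (161 and 231). Over both libraries alveolar macrophages held 187 H2-DMa UMIs per 100 H2-Ab1 UMIs. The same proportion was 29.1 in classical monocytes, 11.4 in B cells, 5.6 in dendritic cells and 4.0 in interstitial macrophages. H2-Oa was highest by CPM in B cells among types with at least 20 H2-Oa UMIs, at 54.4 CPM (LPS) and 30.5 CPM (LPS_MCZ), with 34.3 H2-Oa UMIs per 100 H2-DMa. Alveolar macrophages reached 16.04 per 100, while dendritic cells had 7.8 and classical monocytes 1.2. B cells did not lead by this proportion. T cells had 48.1, from 37 H2-Oa and 77 H2-DMa UMIs, and neutrophils 25.2, from 32 and 127.

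Ciita stood apart in the endothelium. Vascular endothelial cells held Ciita at 79.5 CPM (LPS) and 60.5 CPM (LPS_MCZ), close to B cells (68.9 and 49.1 CPM) and dendritic cells (46.0 and 83.6 CPM). Per 100 Cd74 UMIs this was 14.0 Ciita UMIs in endothelium against 1.7 in B cells, 1.8 in classical monocytes, 0.7 in dendritic cells and 0.4 in interstitial macrophages. Cd74 is the denominator of this share. Ciita overlaps Dexi on the opposite strand over 25888 bases.

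The dendritic class joined 2 clusters. One (34 cells) was led by Ccl17, Ccl22 and Timd4 and held 7 of 7 type 1 and 6 of 7 type 2 dendritic markers at 20 CPM or more. It also held 6 of 8 mature markers, with Ccr7 among its leading genes. The other (60 cells) was led by Ccl22, Fscn1 and Ccr7, genes of mature migrating dendritic cells, with 7 of 8 mature markers at that level. It also held 6 of 7 type 1 and 4 of 7 type 2 markers. Mature markers summed to 2467 CPM in the first cluster and 10367 CPM in the other, type 1 markers to 1192 and 513 CPM, and type 2 markers to 3755 and 6069 CPM. The name mature rests on the higher mature sum, and the markers did not part the clusters cleanly. Ciita was at 125 and 142 CPM in the first cluster in LPS and LPS_MCZ, from 29 and 41 UMIs, while the mature one held 3 and 2 Ciita UMIs in all. H2-DMa was at 327 and 369 CPM in the first cluster against 77.7 and 53.4 CPM in the mature one. H2-DMb1 was at 254 and 238 CPM against 47.5 and 35.6 CPM. The chains differed less, with H2-Ab1 at 3982 and 4912 CPM in the first cluster and 2344 and 3069 CPM in the mature one. Mature cells thus held abundant class II chains with less H2-DM RNA, and too few Ciita UMIs for a ratio. The clusters were drawn from other genes of the same cells, and these values are a description.

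Few cells carried most class II RNA. Classical monocytes, B cells and conventional dendritic cells supplied 28.2%, 27.2% and 18.3% of the 50518 class II UMIs of the LPS library. In LPS_MCZ they supplied 28.2%, 15.7% and 25.2% of 40593. Conventional dendritic cells were 0.472% and 0.445% of cells. The B cell share of class II UMIs was lower in LPS_MCZ by more than its exact binomial intervals (26.9% to 27.6% in LPS and 15.3% to 16.02% in LPS_MCZ), where B cells were 1.31% of cells against 2.59% in LPS. Neutrophils with cluster 8 were most of the cells but supplied 6.84% and 0.315% in LPS, and 7.27% and 4.29% in LPS_MCZ.

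**Figure D2:**
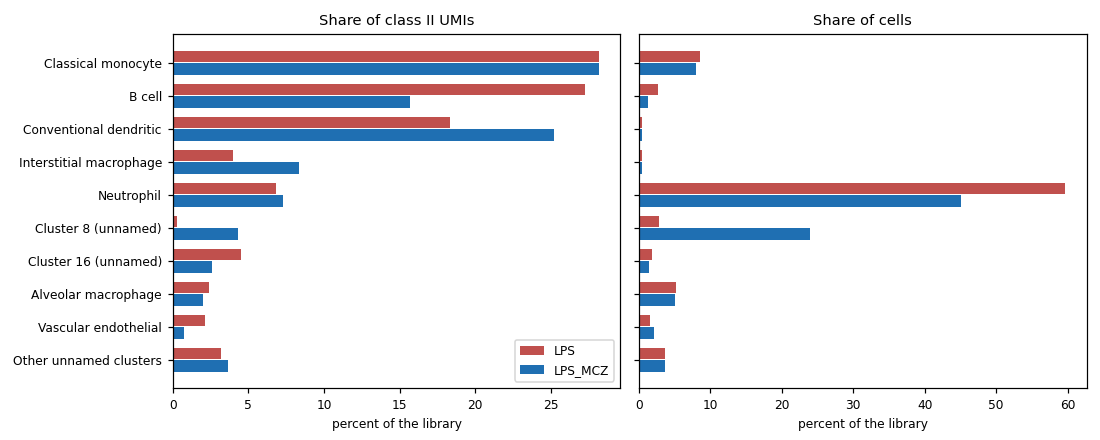
Share of each library's class II UMIs (left) and of its cells (right) by cell type, in percent, with LPS in red and LPS_MCZ in blue; each bar is 1 library. B cells gave 27.2% of class II UMIs in LPS and 15.7% in LPS_MCZ, and dendritic cells 18.3% and 25.2%.

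Over whole libraries the class II level differed little, with 567 CPM (LPS) and 597 CPM (LPS_MCZ), a log2 ratio of 0.07 (0.05 to 0.09). With LPS levels and the LPS_MCZ share of UMIs per cell type the value would have been 547 CPM. With LPS_MCZ levels and the LPS share it would have been 610.2 CPM. Small library-wide differences thus held larger ones of opposite direction between cell types. Each log2 ratio that follows divides the LPS_MCZ level by the LPS level, with 1 CPM added to both, and a member was counted as higher or lower past 0.5 in either direction where it had at least 20 UMIs in the cell type. Intervals are of the ratio without the added CPM, so for weakly counted genes the estimate can lie nearer 0 than the interval.

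In conventional dendritic cells 7 of the 8 measured members were higher in LPS_MCZ and none lower, with a median of 0.56 against 0.14 over 6019 genes. Of those genes 27.9% were higher and 15.6% lower. Cd74 was at 7523 CPM (LPS) and 11167 CPM (LPS_MCZ), a log2 ratio of 0.57 (0.52 to 0.62). H2-Aa was at 2382 and 3508 CPM (0.56, 0.46 to 0.66) and H2-Ab1 at 2891 and 4107 CPM (0.51, 0.42 to 0.60). These chains lay just past the threshold. H2-Eb1 was at 150 and 545 CPM, a log2 ratio of 1.86 (1.54 to 2.204). Ciita was at 46.0 and 83.6 CPM (0.85, 0.17 to 1.57). H2-DMb1, at 0.36 (−0.11 to 0.83), was the measured member not past 0.5. The summed members had a log2 ratio of 0.58 (0.54 to 0.62), with 0.28 (0.22 to 0.34) in the first dendritic cluster and 0.72 (0.67 to 0.78) in the mature one. H2-Eb1 was past 0.5 in both clusters, at 1.20 and 2.37, and Cd74 was at 0.21 and 0.84. H2-DMa was at 0.17 (−0.26 to 0.62) in the first and −0.53 (−1.62 to 0.44) in the mature one. Ciita was at 0.18 (−0.54 to 0.92) in the first and had 3 and 2 UMIs in the mature one. The first cluster gave 18 of 57 LPS cells and 16 of 37 LPS_MCZ cells. The part of this mix in the pooled ratios was not tested. Under a stricter cell filter, which drew 226 and 147 cells into this class, the sum stood at 0.32 and 1 member was higher; centring on the median gene left 3.

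In interstitial macrophages all 6 measured members were higher in LPS_MCZ, with a median of 1.24 against 0.23 over 5303 genes, of which 32.2% were higher and 14.3% lower. Cd74 was at 2150.4 CPM (LPS) and 5062 CPM (LPS_MCZ), a log2 ratio of 1.23 (1.13 to 1.34). H2-Aa was at 683 and 1621 CPM (1.25, 1.06 to 1.44) and H2-Ab1 at 864 and 2007 CPM (1.22, 1.05 to 1.39). Cd74 and the I-A chains thus differed by nearly the same factor. H2-Eb1 was at 13.2 and 222 CPM, from 7 and 83 UMIs, so that it passed the minimum through LPS_MCZ, and 6 LPS_MCZ cells held all 83. A few cells carried the class: the median cell held 4.0 class II UMIs in both libraries, and the top 3 LPS and 2 LPS_MCZ cells held 52.3% and 37.2% of the UMIs. Cells with UMIs of at least 4 members were 29.8% in LPS and 24.2% in LPS_MCZ. H2-DMa was at 41.5 and 69.7 CPM (0.73, −0.13 to 1.64). The summed ratio of 1.26 (1.18 to 1.34) rested on 1 cluster of 30 and 17 cells, where it was 1.45 (1.36 to 1.53). In the low-depth cluster (17 and 16 cells, 179 and 46 class II UMIs) it was −2.58 (−3.08 to −2.10). Under the stricter cell filter, with 16 and 20 cells, the ratio was 0.17 and 1 member was higher.

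In B cells 8 of 9 members had ratios below 0, and H2-Eb1 was the exception. The median was −0.46 against 0.01 over 9364 genes, with 3 members lower and 1 higher past 0.5, where 10.8% of genes were lower and 15.2% higher. Cd74 was at 3964 CPM (LPS) and 3085 CPM (LPS_MCZ), a log2 ratio of −0.36 (−0.42 to −0.30). H2-Ab1 was at 1290 and 940.0 CPM (−0.46, −0.56 to −0.35) and H2-Aa at 1063 and 871 CPM (−0.29, −0.40 to −0.18). H2-DMb2 was at 162 and 109 CPM (−0.56, −0.87 to −0.27), H2-DMa at 150 and 104 CPM (−0.52, −0.84 to −0.22) and H2-Oa at 54.4 and 30.5 CPM (−0.81, −1.42 to −0.28). These 3, chains of H2-DM and of its inhibitor H2-O, were the members counted as lower. H2-Eb1 was at 71.3 and 151 CPM, a log2 ratio of 1.07 (0.75 to 1.41). The B cell cluster also held the plasma cell genes Jchain and Igha among its leading genes, and their part in these ratios was not tested.

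**Figure D3:**
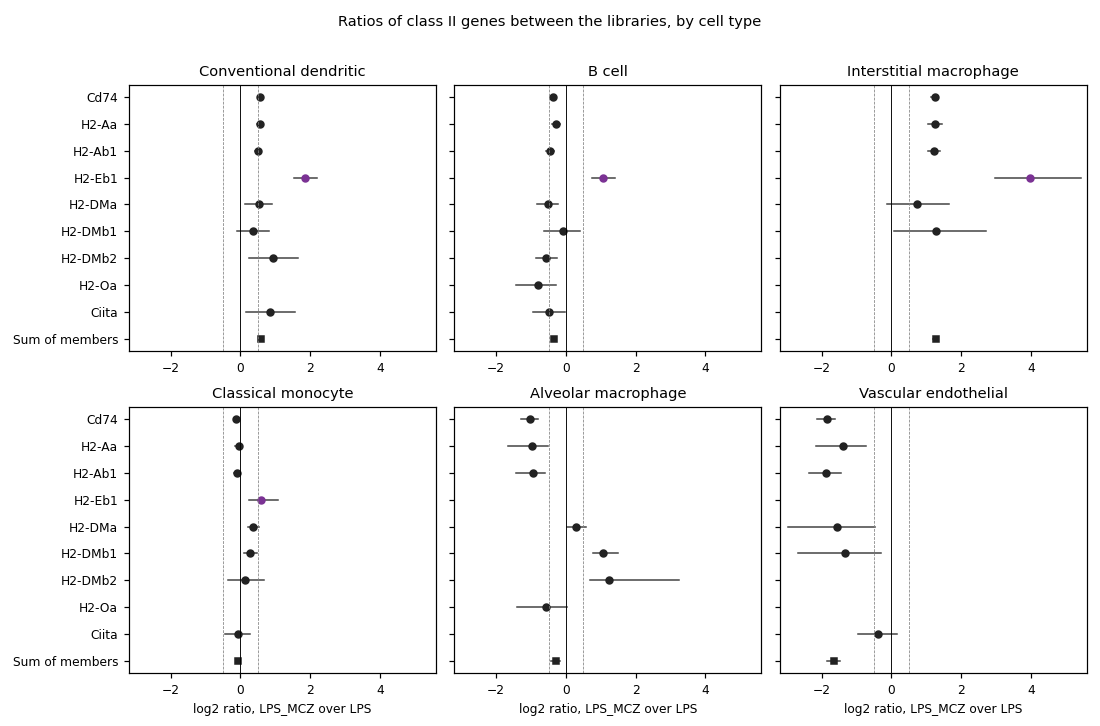
Log2 ratio of LPS_MCZ over LPS (horizontal axis) for each measured member and for the sum of members (square) in 6 cell types, with 95% intervals of the counts; dashed lines mark 0.5 in either direction and H2-Eb1 is in purple. In B cells, at 1.07, and in classical monocytes, at 0.58, H2-Eb1 is the member past 0.5 on the higher side.

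In classical monocytes the members stayed close to level, with a median of 0.04, equal to that over 11956 genes. H2-Eb1 was the 1 member of 8 measured past 0.5, at 6.91 CPM (LPS) and 10.8 CPM (LPS_MCZ) (0.58, 0.23 to 1.06), where 5.88% of genes were higher and 4.47% lower. H2-DMa was at 58.0 and 75.1 CPM (0.37, 0.23 to 0.52) and Cd74 at 627 and 569 CPM (−0.14, −0.19 to −0.09). The summed ratio was −0.07 (−0.10 to −0.03), and it changed sign under 2 alternatives. Class II RNA was uneven among these cells. The median monocyte held 2 class II UMIs in LPS and 3 in LPS_MCZ, while the top 5% of cells (52 and 34 cells) held 68.2% and 68.4% of the type's class II UMIs. In B cells the top 5% held 17.2% and 17.3%.

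In alveolar macrophages 4 of 7 measured members were lower in LPS_MCZ and 2 higher, against 7.01% of genes lower and 13.1% higher. The 2 higher were H2-DMb1 and H2-DMb2. H2-DMb2 (8 UMIs in LPS and 24 in LPS_MCZ) reached the minimum through LPS_MCZ, where it was high, so the count of 2 is not read as a result. One LPS cell held 425 of the 1213 class II UMIs of this type in LPS (35.04%), at 41985 UMIs in all. With the cell of most class II UMIs left out of each library, Cd74 was at 31.5 and 27.4 CPM (−0.19, −0.48 to 0.09), H2-Ab1 at −0.27 (−0.77 to 0.17) and H2-Aa at −0.16 (−0.97 to 0.55). With all cells these were −1.03, −0.95 and −0.96. Without those cells all 3 intervals thus included 0. H2-DMb1 was higher either way, at 13.2 CPM (LPS) and 28.7 CPM (LPS_MCZ) with all cells (1.07, 0.77 to 1.48) and at 1.12 (0.82 to 1.55) without these cells. Under the stricter cell filter 4 members were higher and 0 lower. The clusters of this class were unequally split between the libraries. The cluster led by Slc7a2 and Lpl held 288 LPS and 96 LPS_MCZ cells, with H2-DMb1 at 9.50 and 16.3 CPM. The cluster led by Kcnip4 and Plet1 held 60 and 168 cells, with H2-DMb1 at 32.9 and 36.8 CPM (0.15, −0.36 to 0.71) and H2-DMa at 70.9 and 50.7 CPM (−0.48, −0.86 to −0.10).

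In vascular endothelium 5 of 6 measured members were lower in LPS_MCZ and none higher, with a median of −1.47 against −0.02 over 8061 genes, of which 13.1% were lower and 13.4% higher. Cd74 was at 762 CPM (LPS) and 210 CPM (LPS_MCZ), a log2 ratio of −1.86 (−2.12 to −1.61). H2-Ab1 was at 249 and 67.2 CPM (−1.87, −2.36 to −1.44) and H2-Aa at 83.0 and 30.9 CPM (−1.40, −2.17 to −0.73). Ciita, at 79.5 and 60.5 CPM, had a ratio of −0.39 (−0.97 to 0.17). Cd74 and H2-Ab1 were thus lower by more than Ciita, with intervals apart from its own, while the H2-Aa interval overlapped that of Ciita. The summed ratio was −1.65 (−1.85 to −1.47) and lay between −1.30 and −1.49 in the clusters with at least 50 class II UMIs. It was −2.14 without the top cell of each library, whose LPS_MCZ cell held 34.0% of the class II UMIs. A single cluster held 990 of 1081 class II UMIs in LPS and 237 of 294 in LPS_MCZ. It gave 77 of 194 LPS cells and 38 of 175 LPS_MCZ cells. There the sum was at −1.49 and Ciita at −0.05 (−0.67 to 0.56). A cluster with 1 and 5 class II UMIs went the other way. The part of this unequal split in the pooled ratios was not tested. After thinning all cells to 2000 UMIs, 44.6% of 101 LPS cells (34.7% to 54.8%, Clopper-Pearson) and 27.8% of 79 LPS_MCZ cells (18.3% to 39.1%) had a class II UMI, against 40.7% and 37.7% unthinned, and the thinned intervals overlapped.

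Natural killer cells also had a lower class II sum in LPS_MCZ, at 148 CPM (LPS) and 48.0 CPM (LPS_MCZ) (−1.60, −2.03 to −1.23). The top 5% of LPS cells held 85.6% of their class II UMIs. After thinning, 8.33% of 336 LPS cells and 6.71% of 149 LPS_MCZ cells had a class II UMI, in the range of erythroid cells (5.93% and 10.4%). Both shares are read as background. The LPS sum of 148 CPM was above its free RNA bound of 92.6 CPM, while the LPS_MCZ sum of 48.0 CPM lay below its bound of 141 CPM.

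H2-Eb1 had a higher ratio than H2-Ab1 in B cells, dendritic cells, classical monocytes and neutrophils. It had at least 20 UMIs over both libraries in 7 cell types or clusters. Interstitial macrophages (7 and 83 UMIs), cluster 16 (11 and 20) and cluster 8 (2 and 288) reached this through LPS_MCZ, where it was high, so no count over the 7 is read as a result. B cells, dendritic cells, classical monocytes and neutrophils had 143, 104, 88 and 119 UMIs in LPS alone. In neutrophils H2-Eb1 was at 2.61 CPM in LPS (119 UMIs) and 15.1 CPM in LPS_MCZ (406 UMIs), the 1 member of 7 measured there past 0.5 (10.2% of genes were higher and 4.03% lower), with a log2 ratio of 2.16 and an interval without the added CPM of 2.23 to 2.84. In the same cells H2-Ab1 was at 5.07 and 5.13 CPM (0.02, −0.30 to 0.33), H2-Aa at 2.76 and 4.32 CPM (0.498, 0.27 to 1.02, just under the threshold) and Cd74 at 62.1 and 81.8 CPM (0.39, 0.32 to 0.48). In cluster 8 H2-Eb1 had 2 UMIs in LPS and 288 in LPS_MCZ, an interval of 2.39 to 7.31. In cluster 16 it was at 5.72 and 18.3 CPM (1.52, 0.55 to 2.89).

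Other cell types held too few H2-Eb1 UMIs to count. There were 8 in LPS and 10 in LPS_MCZ in alveolar macrophages, 4 and 0 in endothelium, 8 and 3 in natural killer cells, 2 and 15 in T cells and 3 and 5 in erythroid cells. No ratio is read from these counts. The low-depth part of the classical monocytes held 12 UMIs in LPS and 0 in LPS_MCZ. H2-Eb1 was higher in LPS_MCZ under each alternative run for B cells (0.93 to 1.08), dendritic cells (1.72 to 2.02), interstitial macrophages (2.16 to 4.06), classical monocytes (0.30 to 1.03) and neutrophils (0.99 to 2.49).

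**Figure D4:**
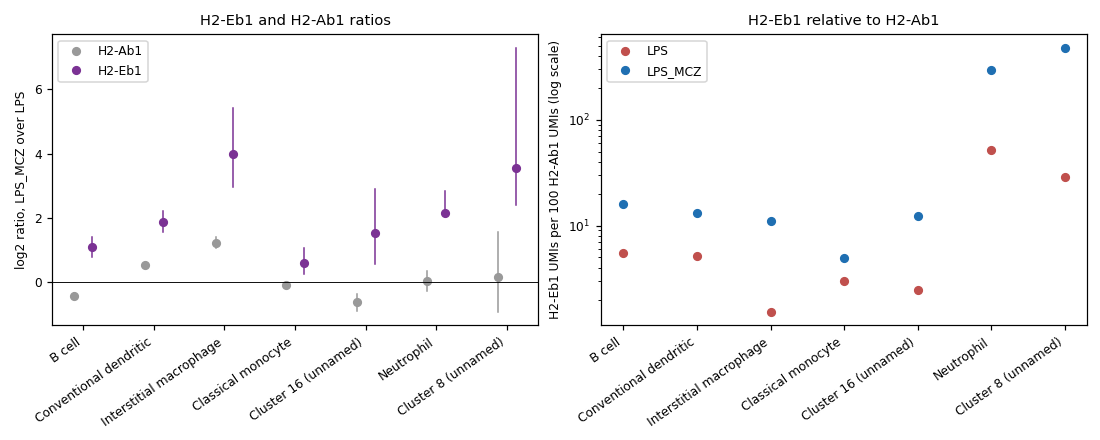
Left, log2 ratio of LPS_MCZ over LPS for H2-Eb1 (purple) and H2-Ab1 (grey) in the 7 cell types in which H2-Eb1 was measured, with 95% intervals of the counts. Right, H2-Eb1 UMIs per 100 H2-Ab1 UMIs (logarithmic axis) in each library; B cells stand at 5.5 in LPS and 16.04 in LPS_MCZ, and cluster 8 in LPS rests on 2 and 7 UMIs.

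The proportion of H2-Eb1 to its class II neighbours moved with the ratio. Per 100 H2-Ab1 UMIs, B cells held 5.5 H2-Eb1 UMIs in LPS and 16.04 in LPS_MCZ, dendritic cells 5.2 and 13.3, and interstitial macrophages 1.5 and 11.1. Classical monocytes held 3.0 and 5.0. H2-Aa per 100 H2-Ab1 UMIs moved less, from 82.4 to 92.7 in B cells and from 82.4 to 85.4 in dendritic cells. In neutrophils H2-Eb1 outnumbered H2-Ab1 in LPS_MCZ, with 51.5 per 100 in LPS and 294 in LPS_MCZ. The whole libraries held 5.4 and 20.8 per 100, so neutrophils stood above their own library's proportion in both. So did T cells and erythroid cells, whose class II sums are read as background. T cells held 9.5 and 300 per 100, from 2 and 21 UMIs in LPS and 15 and 5 in LPS_MCZ. Erythroid cells had 3 H2-Eb1 and 12 H2-Ab1 UMIs in LPS, and 5 and 6 in LPS_MCZ. The T cell and erythroid counts are too few to say whether this proportion sets neutrophils apart from background types. The part of free RNA in it was not tested.

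The neutrophil H2-Eb1 signal was spread over cells but uneven among clusters. Cluster 0 held 81 of the 119 UMIs in LPS, and cluster 7 held 222 of the 406 in LPS_MCZ. H2-Eb1 was seen in 84 of 7209 LPS neutrophils (1.17%, 0.930% to 1.44%) and in 229 of 3745 LPS_MCZ neutrophils (6.11%, 5.37% to 6.93%), with at most 8 and 9 UMIs in a cell. After thinning to 2000 UMIs these shares were 0.680% and 3.10%, against 0 of 135 erythroid cells in LPS, which allows up to 2.22%, and 1 of 106 in LPS_MCZ. Most of these neutrophils had no UMI of an I-A chain. In LPS 4 of the 84 and in LPS_MCZ 27 of the 229 also had an H2-Aa or H2-Ab1 UMI, while all H2-Eb1 cells among B cells did (84 and 48). The median B cell held 40.0 and 52.0 class II UMIs and the median neutrophil 0.0 in both libraries, so these shares are not comparable. The share of all neutrophils with an I-A UMI is not given here. Cd74 was seen in 41.7% (LPS) and 45.0% (LPS_MCZ) of the H2-Eb1 neutrophils, against 22.3% and 30.5% of all neutrophils. Cluster by cluster, H2-Eb1 was higher in LPS_MCZ in 8 of 8 neutrophil-marker clusters, at 0.106 to 10.4 CPM in LPS and 3.92 to 49.5 CPM in LPS_MCZ. Cd74 was higher in 7 of these 8, H2-Ab1 in 5 and H2-Aa in 4. Clusters 5, 6 and 8 had 1, 2 and 2 H2-Eb1 UMIs in LPS. In cluster 2 (16 and 3 UMIs) the interval of the H2-Eb1 ratio ran from −1.54 to 2.69. The clusters are parts of the same 2 libraries and not replicates, so counts over them are a description. The clusters held different parts of the libraries, with clusters 6, 7 and 8 mostly LPS_MCZ cells and clusters 0, 2 and 4 mostly LPS cells. Gm20513, an antisense gene that overlaps H2-Eb1 over 2204 bases, had 170 and 160 UMIs in all cells.

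Detection of any class II UMI separated the types at matched depth. After thinning to 2000 UMIs, 92.5% of 265 LPS and 93.0% of 100 LPS_MCZ B cells had one, as did 95.3% of 43 and 96.7% of 30 dendritic cells. Classical monocytes reached 35.9% of 808 (32.6% to 39.3%) and 41.3% of 595 cells (37.4% to 45.4%), intervals that overlap, and 68.1% and 78.0% unthinned. Neutrophils reached 13.3% and 18.5% (27.9% and 38.5% unthinned), T cells 5.55% and 9.82%, and erythroid cells 5.93% and 10.4%. The background shares of T and erythroid cells were also higher in LPS_MCZ than in LPS. Median depths were 5740 and 6607 UMIs in neutrophils and 6337 and 5955 in erythroid cells.

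Of the 37 further pathway genes, 35 were in the matrices. In B cells 31 were measured, with 8 lower and 1 higher in LPS_MCZ, against 10.8% and 15.2% of all genes, and a median of −0.30. Among them H2-Eb2, a further beta chain gene, was at 27.4 and 9.32 CPM (−1.46, −2.64 to −0.61). In dendritic cells 27 were measured, 9 higher and 5 lower, against 27.9% and 15.6% of all genes, so these shares were near the background. Of 7 endosomal processing genes 4 were higher and 1, Lgmn, lower. Ctsd was at 17.3 and 189 CPM (3.38, 2.58 to 4.45), Ctsb at 141 and 303 CPM (1.10, 0.73 to 1.49), Ctsl at 18.7 and 40.8 CPM (1.09, 0.06 to 2.25) and Ctss, which trims Cd74, at 556 and 930 CPM (0.74, 0.54 to 0.94). Irf8, a transcription factor of dendritic and B cells, was lower in dendritic cells, at 502 and 216 CPM (−1.21, −1.54 to −0.90), and in B cells, at 358 and 251 CPM (−0.51, −0.71 to −0.32).

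In interstitial macrophages 27 pathway genes were measured, 11 higher and 3 lower, against 32.2% and 14.3% of all genes. Those past 1 on the log2 scale were Ifi30, the lysosomal thiol reductase, at 37.7 and 174 CPM (2.18, 1.47 to 3.01), the chemokine receptor Cxcr4 at 18.9 and 59.0 CPM (1.59), the protease Lgmn at 219 and 555 CPM (1.34), the Cd74 ligand Mif at 109 and 265 CPM (1.27) and Socs1, an inhibitor of cytokine signalling, at 39.6 and 83.1 CPM (1.05). Classical monocytes had 32 measured and 1 lower. Ctss there was at 0.13 (0.09 to 0.16), Ifi30 at −0.04 (−0.12 to 0.04), Irf8 at 0.12 (0.02 to 0.22), March1, a ubiquitin ligase that removes class II from the surface, at −0.24 (−0.36 to −0.13) and Rfx5, which binds the X box, at 0.07 (−0.50 to 0.66).

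Genes whose level pattern was most like the members' mean were ranked by Spearman's rho over 38 profiles (19 cell types in 2 libraries) among 12344 genes. The 10 highest were Cd83, a surface protein of mature dendritic cells that stabilises class II (0.72), Rufy3 (0.71), Lrrc8c (0.69), Erp29 (0.69), Taok3 (0.69), Stxbp3 (0.68), Hps5 (0.68), Snx30 (0.68), Zfp516 (0.67) and Snrnp35 (0.67). Members themselves ranged from 0.42 (H2-Oa) and 0.64 (H2-Eb1) to 0.94 (Cd74). The profiles share libraries and several rest on few cells, so these are descriptions.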

How the data were processed

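The deposited matrices hold raw UMI counts per gene and barcode from Cell Ranger 7.0.0, per the file headers; bcl2fastq 2.20 and mm10 are per the submitters' processing notes, and the sources used here do not say how intronic reads were treated. Cells with at least 200 genes, 500 UMIs and at most 20% mitochondrial UMIs were kept. Scrublet's automatic threshold called 2 LPS and 0 LPS_MCZ cells as doublets, so the caller did not work here. Counts scaled to 10000 per cell were clustered (scanpy 1.11.5, igraph 0.11.9: 2000 variable genes without class II genes, 30 components, 15 neighbours, Leiden resolution 1.0), and clusters of mixed marker content or low depth were split once. Names came from marker lists of 26 classes; splitting and naming rules were set after the clusters had been seen. The members, lists and comparisons were chosen with earlier results of these data known. UMIs were summed by cell type and library; Poisson, conditional binomial and Clopper-Pearson intervals at 95% (scipy 1.17.1) cover counting alone, and a count of 0 allows up to 3. UMI counts are free of amplification duplicates but not of free RNA. The ratio script was tested on simulated data. No test between the groups was made, as each has 1 library. The 9 members are named in every result where counted; pathway genes are named past 1 on the log2 scale, as are Ctss, Ifi30, Rfx5, Irf8 and March1 where a main type's values are given (1 further gene of this rule is not reported here), and the 10 genes of most like pattern. Levels outside these rules were chosen after they were seen. Leaving out barcodes found in both libraries, the cell with most class II UMIs, or clusters of low depth was an alternative chosen after seeing the data; the others were listed earlier.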

Additional observations from a re-analysis of the deposited data

Results flagged for a closer look

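For 6 members and for their sum, the ratio of LPS_MCZ over LPS was past 0.5 on the log2 scale in 1 cell type and past −0.5 in another, with intervals on either side of 0. The difference between the cell types was not tested, since each group has 1 library. Cd74 was at 1.23 in interstitial macrophages and −3.66 in innate-like lymphocytes, 4.89 apart, and the lymphocyte value rests on 49 and 2 UMIs. H2-Ab1 was at 1.22 in interstitial macrophages and −2.47 in natural killer cells (89 and 7 UMIs), 3.68 apart. H2-Aa was at 1.25 and −1.54 in the same types, 2.79 apart. The top 5% of LPS natural killer cells held 85.6% of their class II UMIs, and the share of these cells with a class II UMI was in the range of erythroid background. H2-DMb1 was at 1.29 in interstitial macrophages and −1.34 in vascular endothelium, 2.63 apart. H2-DMa was at 0.90 in cluster 16 and −1.55 in vascular endothelium, 2.45 apart. H2-DMb2 was at 1.23 in alveolar macrophages (8 and 24 UMIs) and −0.56 in B cells, 1.79 apart. The alveolar value reached the minimum of UMIs through LPS_MCZ, where it was high. The sum was at 1.35 in basophils or mast cells (7 and 23 UMIs) and −2.45 in airway epithelium (48 and 6 UMIs), 3.80 apart. In airway epithelium 1 LPS cell held 68.8% of the class II UMIs, and 1 LPS_MCZ basophil or mast cell held 47.8%. Without the top cell of each library both intervals included 0, at 0.85 (−0.75 to 2.72) and −1.32 (−3.43 to 0.27).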

How the results depend on the processing

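No paired analysis was possible because each group has 1 library, and for the same reason no replicate could be left out. The log2 ratio of the summed members kept its sign in B cells (−0.44 to −0.34), dendritic cells (0.32 to 0.68), interstitial macrophages (0.17 to 1.45) and endothelium (−2.14 to −1.16) under each alternative run. The stricter cell filter gave −0.44 in B cells, 0.32 in dendritic cells, 0.17 in interstitial macrophages, −0.016 in monocytes and 0.52 in alveolar macrophages, and set dendritic over B cell levels at 0.511 (LPS) and 0.865 (LPS_MCZ). Its dendritic class was far wider, with 226 and 147 cells. Removing the highest Scrublet scores gave 0.48 in dendritic cells, 0.98 in interstitial macrophages, 0.048 in monocytes, 0.44 in alveolar macrophages and −1.33 in endothelium, with dendritic over B cell levels of 1.65 and 2.94. Keeping class II genes in the clustering gave 0.65, 1.14, 0.024 and −1.28 in dendritic cells, interstitial macrophages, monocytes and endothelium, and level ratios of 2.03 and 4.13. Monocytes thus changed sign under 2 alternatives and alveolar macrophages under 3, the third being 0.22 without the cell of most class II UMIs. The cause was not tested.

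Without that cell, interstitial macrophages stood at 1.39, monocytes at −0.14 and endothelium at −2.14. Without barcodes found in both libraries, B cells stood at −0.41, dendritic cells at 0.68, monocytes at −0.016 and endothelium at −1.24, with level ratios of 1.89 and 4.02. Clustering each library separately gave 0.45 in dendritic cells, 0.77 in interstitial macrophages and −0.019 in monocytes, and no B cell value, as no LPS_MCZ cluster was named so. Subtracting free RNA gave 0.52 in dendritic cells, −0.64 in alveolar macrophages and a level ratio of 3.48 in LPS_MCZ. Centring on the median gene gave 0.44, 1.03 and −0.10 in dendritic cells, interstitial macrophages and monocytes. Leiden resolution 0.5 gave −1.18 in endothelium, and resolution 2.0 gave −1.16 there and 1.16 in interstitial macrophages. Leaving out low-depth clusters gave 1.45 in interstitial macrophages. Thinned to 1000 UMIs, 27.4% and 30.3% of monocytes had a class II UMI. The stricter filter counted 5 B cell members as lower in place of 3. Counts under 20 UMIs, as for H2-Oa in dendritic cells, give no ratio at this depth.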

Other observations

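Several small types held few class II UMIs. Fibroblasts had 36 class II UMIs in LPS (49 cells) and 9 in LPS_MCZ (31 cells), and 1 LPS cell held 61.1% of them. Mesothelial cells had 11 and 19, mural cells 6 and 2, and platelets 4 and 1. H2-Oa was listed with 25 and 12 UMIs in T cells, at 4.32 and 4.93 CPM, above H2-Ab1 in these cells at 3.63 and 2.06 CPM.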
